A study of Caenorhabditis elegans with 2 samples.

Results

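The genes described here encode the core of the basement membrane of Caenorhabditis elegans: the type IV collagen chains emb-9 and let-2, the collagen XVIII-like gene cle-1, the laminin chains epi-1, lam-3, lam-1 and lam-2, the nidogen gene nid-1, the perlecan gene unc-52 and the SPARC gene ost-1. They were chosen by name, and all 10 were found among the 19973 protein-coding genes of the nuclear chromosomes in the WBcel235 annotation (the same assembly as ce11). For each gene, the peak summits of SET-16 were read over the gene body and 1000 bp to each side, which is called its region below. Together the 10 regions covered 146 kb.

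SET-16 occupancy was measured by chromatin immunoprecipitation and sequencing (ChIP-seq), which maps where a protein is attached to the genome, in 2 biological replicates of 1 group. The animals were whole L4 larvae of strain RW12223, aged 48 hours and synchronised by starving hatched L1 larvae after bleaching, and every animal carried st12223[set-16::TY1::EGFP::3xFLAG], a CRISPR insertion of the tags into set-16 on chromosome III. Chromatin was fragmented by sonication to 200 to 800 bp and precipitated with an antibody against GFP, so the tagged protein was pulled down through its EGFP. The antibody label of both samples reads set-16. The series holds no second condition, and each peak is a mixture over all tissues of the animal, so peaks from the cells that make basement membrane and peaks from other cells cannot be told apart.

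A basement membrane is a thin sheet of extracellular matrix under epithelia and around muscle, gonad and pharynx. Type IV collagen chains wind into triple helices of repeating Gly-X-Y triplets and join into a network, laminin trimers of an alpha, a beta and a gamma chain form another, and nidogen, perlecan and collagen XVIII bind to these networks. In this worm, body wall muscle makes much of the type IV collagen. SET-16 belongs to the MLL family of enzymes that methylate lysine 4 of histone H3, a mark of active promoters and enhancers.

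The conservative list, which the authors made from both libraries, held 5795 peaks with a median signal of 170 and was the main list. Peak signal is the caller's own strength value on a scale not given in the sources used here, so signals are ranked only within a list, and a ratio between replicate lists is set only against the same ratio at all summits. Each peak also has a score from the irreproducible discovery rate (IDR), with a maximum of 1000 and a lowest value of 830 among thresholded peaks. Replicate 1 had 5876 thresholded peaks and replicate 2 had 4377, a second whole-series list had 6905, and the ranked lists also hold weaker peaks below the threshold. No file holds read counts, so sequencing depth is unknown.

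Most summits in these genes lay on coding sequence, and the sequences under 6 windows are shown because they carry the contrast described below. They are RefSeq WBcel235 genome sequence, printed 5′ to 3′ on the strand of the gene. The let-2 window chrX:16382054-16382254 (minus strand) is centred on the strongest summit of the 10 genes in the conservative list, and the emb-9 window chrIII:9340412-9340612 (minus strand) on the strongest summit of emb-9. In these and in the 2 perlecan and laminin coding windows, capitals mark in-frame glycine codons (GGN).
let-2 coding: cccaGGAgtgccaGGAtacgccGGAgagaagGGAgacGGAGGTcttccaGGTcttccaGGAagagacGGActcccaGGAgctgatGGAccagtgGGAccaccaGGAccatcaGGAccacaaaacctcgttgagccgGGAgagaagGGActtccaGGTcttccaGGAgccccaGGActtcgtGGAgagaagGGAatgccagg
emb-9 coding: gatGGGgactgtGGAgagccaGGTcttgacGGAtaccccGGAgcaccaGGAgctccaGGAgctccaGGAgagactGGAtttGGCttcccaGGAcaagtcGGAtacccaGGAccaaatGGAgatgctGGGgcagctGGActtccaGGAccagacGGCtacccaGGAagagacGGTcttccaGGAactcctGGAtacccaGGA
The strongest unc-52 summit lay in chrII:14664749-14664949 (minus strand), which has 60.7% GC like the let-2 window but 4 glycine codons among 67, against 21 among 66 in let-2 and 23 among 67 in emb-9.
unc-52 coding: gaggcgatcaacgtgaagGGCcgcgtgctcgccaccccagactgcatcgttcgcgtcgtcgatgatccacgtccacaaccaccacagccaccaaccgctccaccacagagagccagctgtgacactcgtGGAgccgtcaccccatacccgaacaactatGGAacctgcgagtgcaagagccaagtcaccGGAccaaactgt
The lam-2 window chrX:7151001-7151200 (minus strand) is the most GC-rich 200 bp tile of the lam-2 region, has 48% GC and held no peak. Its first 14 bases as printed are untranslated.
lam-2 no peak: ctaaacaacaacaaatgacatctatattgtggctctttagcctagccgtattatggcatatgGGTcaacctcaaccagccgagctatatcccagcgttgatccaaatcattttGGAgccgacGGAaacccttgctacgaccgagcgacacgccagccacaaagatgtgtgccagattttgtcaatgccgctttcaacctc
The remaining 2 windows are noncoding summits near gene starts. In the unc-52 intron window chrII:14683736-14683936 (minus strand) capitals mark each GTCC, and in the let-2 upstream window chrX:16389361-16389561 (minus strand) capitals mark a TC repeat, which reads as GA on the other strand.
unc-52 intron: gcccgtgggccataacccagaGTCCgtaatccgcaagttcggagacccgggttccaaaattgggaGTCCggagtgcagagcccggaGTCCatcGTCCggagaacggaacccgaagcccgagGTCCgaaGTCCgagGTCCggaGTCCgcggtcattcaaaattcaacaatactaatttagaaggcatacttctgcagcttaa
let-2 upstream: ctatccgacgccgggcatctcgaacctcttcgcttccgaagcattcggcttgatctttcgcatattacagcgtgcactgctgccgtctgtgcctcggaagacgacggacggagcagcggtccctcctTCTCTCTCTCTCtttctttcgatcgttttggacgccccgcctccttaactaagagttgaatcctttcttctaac

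SET-16 summits fell in the regions of 5 of the 10 genes, which were emb-9, let-2, epi-1, unc-52 and ost-1, and in none of cle-1, lam-1, lam-2, lam-3 or nid-1. Among all protein-coding genes, 20.4% had a conservative summit in the same window. The summits were unevenly spread: let-2 had 11, unc-52 had 7, emb-9 had 4, and epi-1 and ost-1 had 1 each, 24 summits in 20 peak intervals. At least 4 summits were found in 1.1% of all genes, at least 7 in 0.18%, and at least 11 in 0.0401%, which is 8 genes. The highest number in any gene was 15. A summit was present in 6 of the 10 genes in the second whole-series list, against 23.5% of all genes, in 6 in replicate 1 against 20.7%, in 3 in replicate 2 against 16.9%, and in 6 in the ranked conservative list against 45.7%.

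The count of genes has to be read against gene length, since long genes hold more summits. The share of all genes with a summit was 14.9% for bodies under 2 kb, where none of the 10 fell, 18.6% for bodies of 2 to 5 kb, 35.4% for 5 to 10 kb, 51.6% for 10 to 20 kb and 66.2% for 20 kb or more. Of the 10 genes, ost-1 was the only one of 2 to 5 kb, and it had a summit. Between 5 and 10 kb, emb-9 and let-2 had summits while lam-2 and nid-1 had none. Between 10 and 20 kb, epi-1 had a summit, outside its own body, and lam-1, lam-3 and cle-1 had none. unc-52 was the only gene over 20 kb.

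Per length, the 10 regions held 0.164 summits per kb, against 0.0610 per kb over the regions of all genes. This density was 1.02 per kb in let-2, 0.418 in emb-9, 0.183 in ost-1, 0.179 in unc-52 and 0.0691 in epi-1. Over all genes with at least 50% coding GC, the class of let-2, emb-9 and ost-1, it was 0.257 per kb. It was 0.0901 over those with 45 to 50%, the class of unc-52, and 0.0327 over those with 40 to 45%, the class of the other 6. The let-2 density was above that of 99.9% of genes and the emb-9 density above that of 96.4%, while those of ost-1, unc-52 and epi-1 were above 86.0%, 85.8% and 80.4%. Since 79.6% of genes had no summit, any gene with a summit stands above that share. A summit in the start window, reaching 1000 bp upstream and 200 bp downstream of the annotated gene start, was present in 2 of the 10 genes, let-2 and ost-1, and in 6.99% of all genes.

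**Figure D1:**
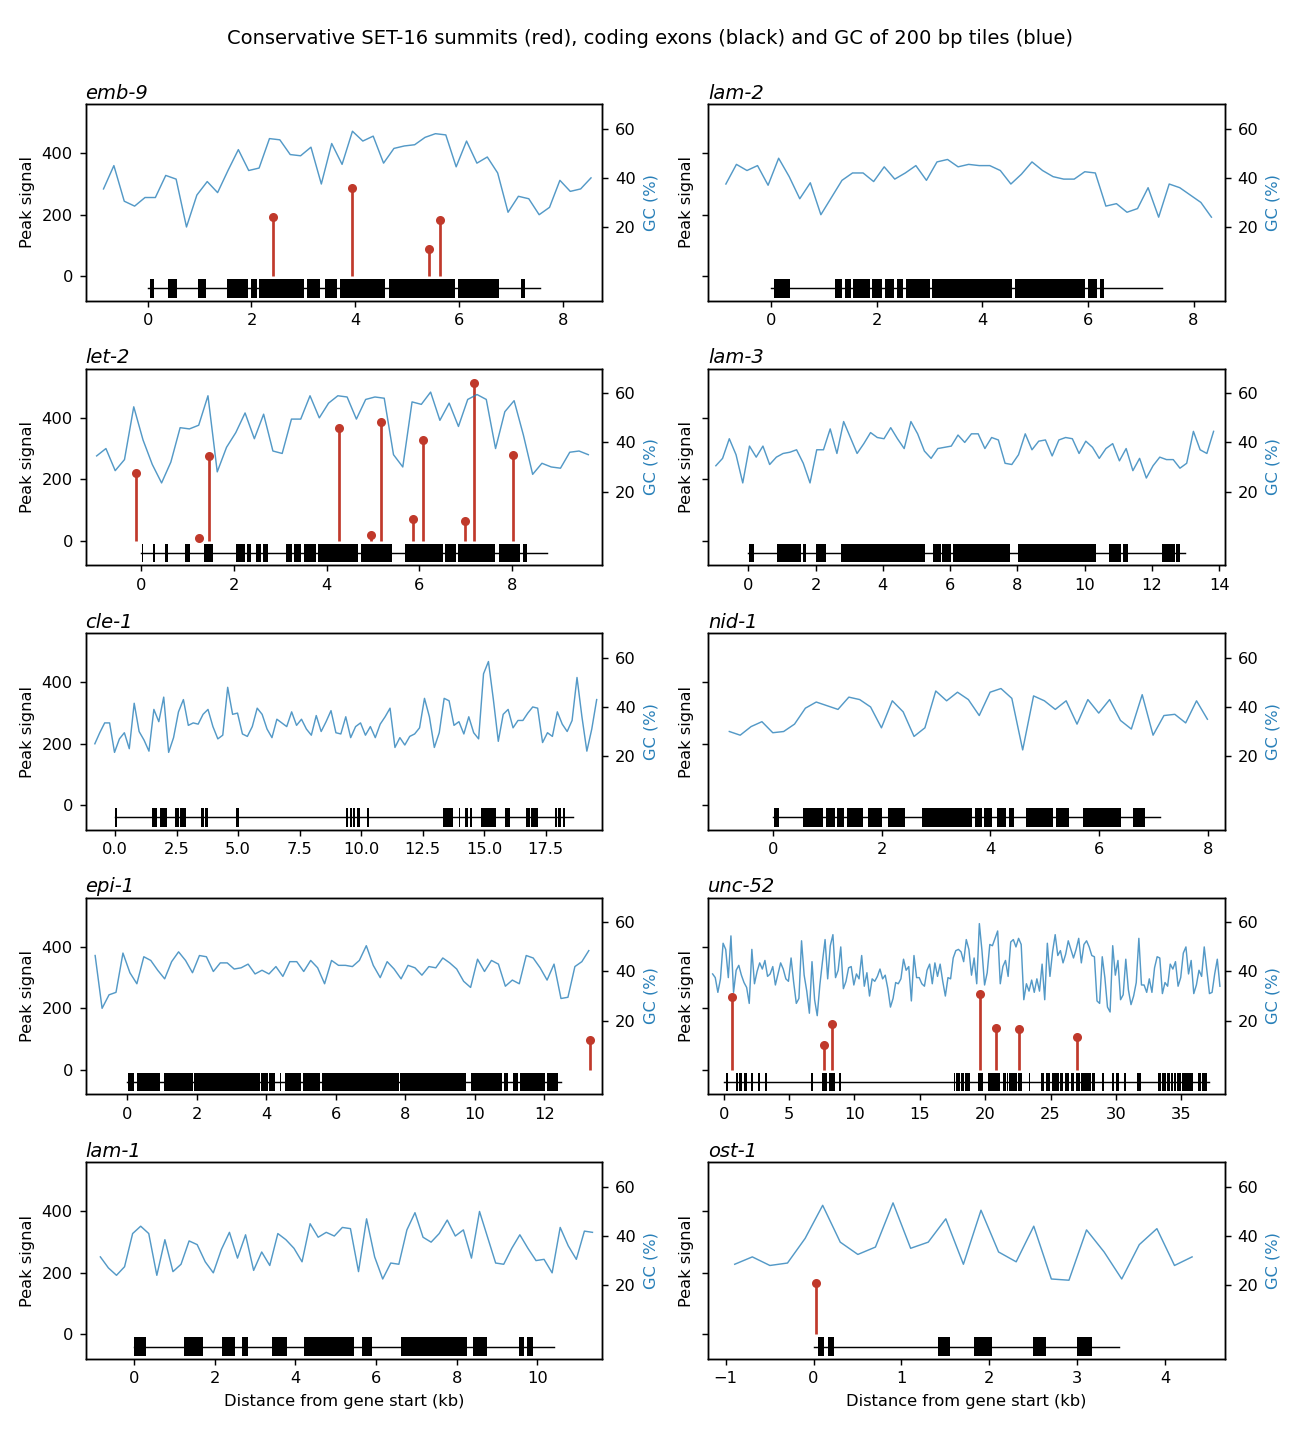
Conservative SET-16 summits along the 10 genes, by distance from the gene start in kb (horizontal axis), with peak signal on the left axis and the GC content of 200 bp tiles on the right axis. Red stems are summits, black boxes coding exons and the blue line GC content; the summits of emb-9, let-2 and unc-52 stand mostly over coding exons, and 5 genes have no summit.

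The type IV collagen genes held 15 of the 24 summits. let-2 (WBGene00002280, X:16380597-16389340, minus strand, 8744 bp) encodes the alpha-2 chain. Its strongest summit had a conservative signal of 512, rank 732 of 5795, 7186 bp from the gene start in coding exon 16 of 18, which is 792 bp long, and GC within 100 bp of it was 60.7%. Replicate 1 had a signal of 421 there and replicate 2 a signal of 143, each with a score of 1000. The other strong coding summits of let-2 had conservative signals of 277 at 1454 bp, 365 at 4265 bp, 385 at 5171 bp, 328 at 6066 bp and 280 at 8022 bp. In all of these, both replicates had a thresholded peak, and the value listed in replicate 1 was the higher.

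The 4 weaker summits within let-2 each lay close to a stronger one. The conservative signal was 71.7 at 5860 bp and 65.3 at 6986 bp, and 16.7 at 4964 bp, all in coding exons. At 1254 bp, in an intron and over the noncoding RNA genes F01G12.14 and F01G12.16, it was 8.58, the lowest of all 24. Neither replicate's ranked list had a summit within 100 bp of the last 2 positions, so they counted as called in both replicates only through overlap of the peak intervals. At 6986 bp the call in replicate 2 also rested on overlap alone. Its ranked summit there had a score of 374, below the threshold. The let-2 start region had a summit of its own, 121 bp upstream of the annotated start, with a conservative signal of 220, replicate signals of 133 and 86.6, and 54.2% GC.

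emb-9 (WBGene00001263, III:9336881-9344447, minus strand, 7567 bp) encodes the alpha-1 chain, and its 4 summits were all in coding exons and none near its start. The strongest, at 3935 bp in exon 9 of 12, had a conservative signal of 288, with 213 in replicate 1 and 85.2 in replicate 2. The summit at 2412 bp, in exon 6, had a conservative signal of 194, with 123 in replicate 1 and 75.9 in replicate 2. It was the only emb-9 summit with a thresholded peak in both replicates. Exon 10, of 1273 bp, held the other 2 within a shared interval (III:9338614-9339141): the signal was 183 at 5628 bp, with replicate values of 130 and 53.0, and 87.4 at 5427 bp, with 72.4 and 13.2. In replicate 2 the scores of the 3 summits without a thresholded peak were 696, 778 and 145, below the limit of 830.

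In both collagen genes the coding summits stood almost throughout over sequence that encodes Gly-X-Y repeats. Within 100 bp of the 13 coding summits, 275 of 861 whole codons encoded glycine (31.9%), with a range of 14.9% to 35.8% per summit, and 85.8% of these glycine codons were followed by another glycine codon 3 codons on. GGA made up 75.6% of the glycine codons, beside 76.9% over all of emb-9, 78.4% over all of let-2 and 75% in the unc-52 coding windows. CCA made up 93.3% of the proline codons, beside 84.1% in the unc-52 coding windows. The lowest glycine share belonged to the let-2 summit at 8022 bp in exon 17, where 10 of 67 codons encoded glycine and 4 cysteine. Over the whole genes, glycine took 29.1% of emb-9 codons and 29.8% of let-2 codons, so the windows were close to the rest of the coding sequence in this respect.

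cle-1 (WBGene00000527, I:8705668-8724279, minus strand, 18612 bp) encodes a collagen of the type XV and XVIII kind and had no conservative summit, but the lists disagreed. Replicate 1 had a thresholded summit at I:8709174, 15105 bp from the gene start, with a signal of 376, rank 642 of 5876 and a score of 1000. The second whole-series list had a summit at I:8709170 with a signal of 543, rank 680 of 6905. Replicate 2 had no summit there even in its ranked list, where the only cle-1 peak was at 18792 bp in the downstream flank, with a signal of 32.4 and a score of 378. The replicate 1 summit lay in coding exon 17 of 23, which is shared by all 4 transcripts, with 60.7% GC, and 23 of the 66 codons around it encoded glycine, against 8.85% of codons in the whole gene. Of the replicate lists, only that of replicate 1 held this summit.

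None of the 4 laminin genes had a conservative summit in its body. epi-1 (WBGene00001328, IV:10666823-10679291, plus strand, 12469 bp) encodes a laminin alpha chain, and its summit lay 837 bp past the gene end, inside K08C7.4, which runs on the opposite strand and starts 351 bp from the summit. The conservative signal there was 97.95 with a score of 940, replicate 1 had 50.8 and a thresholded peak, and replicate 2 had 49.0 with a score of 717 and no thresholded peak. The ranked conservative list had 6 weaker summits in the coding exons of epi-1, with signals of 7.12 to 15.4 and a score of 88. lam-3 (WBGene00002248, I:10608466-10621435, plus strand, 12970 bp), the other alpha chain, had no summit in any of the 7 lists read, ranked lists included.

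lam-1 (WBGene00002247, IV:5173332-5183746, plus strand, 10415 bp), the beta chain, had 4 ranked conservative summits below the threshold. The strongest had a signal of 60.2 and a score of 560 and lay in the downstream flank at 10577 bp, where replicate 1 had 16.8 and replicate 2 had 43.6. lam-2 (WBGene00016913, X:7143846-7151239, minus strand, 7394 bp), the gamma chain, had 1 ranked summit in replicate 1, with a signal of 12.8 and a score of 175, and none in the other lists read. nid-1 (WBGene00003738, V:12910107-12917221, plus strand, 7115 bp), which encodes nidogen, had 1 ranked summit per replicate in coding sequence, at 1596 bp in replicate 1 with a signal of 14.04 and at 1608 bp in replicate 2 with 46.9, and none in the conservative ranked list. A peak that was not called is not a measurement of 0, since depth is unknown.

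unc-52 (WBGene00006787, II:14647321-14684456, minus strand, 37136 bp) encodes perlecan, a heparan sulfate proteoglycan with 17 annotated transcripts here, and had 7 summits in 7 intervals. The strongest, at 19607 bp in coding exon 15 of 44, had a conservative signal of 247, with 169 in replicate 1 and 80.4 in replicate 2. An intron summit 620 bp from the gene start, 460 bp from the nearest annotated transcript start, had 236, with 154 and 77.5. The third summit with a thresholded peak in both replicates was at 8323 bp in exon 10, with 150, and replicate values of 87.4 and 64.4. The other 4 of the 7 had a thresholded peak in replicate 1 alone or in neither replicate.

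The summits at 20863 and 22617 bp had conservative signals of 135 and 134 and a thresholded peak in replicate 1 alone. Those at 27022 and 7662 bp, with 107 and 81.5, had a thresholded peak in neither replicate. The last of these stood just inside the threshold with a score of 831, and just outside it the ranked conservative list had summits at 27751 bp, with a signal of 82.5 and a score of 712, and 12 bp upstream of the gene start, with 82.1 and a score of 701. Both were in the second whole-series list. Unlike the collagen windows, the 6 coding windows of unc-52 had 7.35% glycine codons (28 of 381), with a range of 0 to 15.2%, beside 11.5% proline and 6.56% cysteine.

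ost-1 (WBGene00003893, IV:1107396-1110872, plus strand, 3477 bp) encodes SPARC, a secreted glycoprotein that binds collagen. Its summit lay 31 bp downstream of the annotated start, in an untranslated exon, with a conservative signal of 168 and 58.2% GC. Replicate 1 had 95.9 with a score of 1000, and replicate 2 had 71.4 with a score of 257 and no thresholded peak.

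By location, 19 of the 24 summits were in coding exons (79.2%, exact 95% binomial interval 57.8 to 92.9%), 2 in introns, 1 in an untranslated exon, 1 upstream and 1 downstream. Among all conservative summits 45.7% were in a coding exon. That set also includes summits outside any gene region, so it is not a like comparison. Own coding exons took 43.8% of the base pairs in the 10 regions and introns 39.1%. Of the 19, 13 were in the 2 collagen genes and 6 in unc-52. Neighbouring summits of a gene share a source, so this interval and those below cover counting error only and treat neighbouring summits as separate.

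A thresholded peak in both replicates was present at 15 of the 24 summits (62.5%, exact 95% interval 40.6 to 81.2%), against 61.8% of all conservative peaks. By gene this was 11 of 11 in let-2, 3 of 7 in unc-52, 1 of 4 in emb-9 and 0 of 1 in both epi-1 and ost-1. Replicate 1 alone had a thresholded peak at 7, replicate 2 alone at 0, and neither at 2. Where the match required replicate summits within 100 bp, 12 of the 24 were called in both. The summits lost were all in let-2, at 1254, 4964 and 6986 bp. The 61.8% of all conservative peaks rests on overlap and is no comparison for this stricter rule, for which no such share is given here.

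In the ranked lists, 22 of the 24 summits had a counterpart within 100 bp in each replicate, and the value listed in replicate 1 was the higher at 20 of them. With scale and depth unknown, this does not show stronger occupancy in replicate 1. The 2 exceptions were the let-2 summit at 6986 bp, with 26.9 in replicate 1 and 34.8 in replicate 2, and the unc-52 summit at 7662 bp, with 32.0 and 48.1. The median ratio of replicate 1 to replicate 2 was 1.89 (range 0.666 to 9.20) at these summits and 1.30 at all 5343 matched conservative summits, of which 65.4% were higher in replicate 1. The ratio moved with GC content across the whole list: it was 0.987 at summits of 50 to 55% GC (n = 1967) and 1.76 at 55% or more (n = 2696). Its part in the ratios of these genes was not tested.

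**Figure D2:**
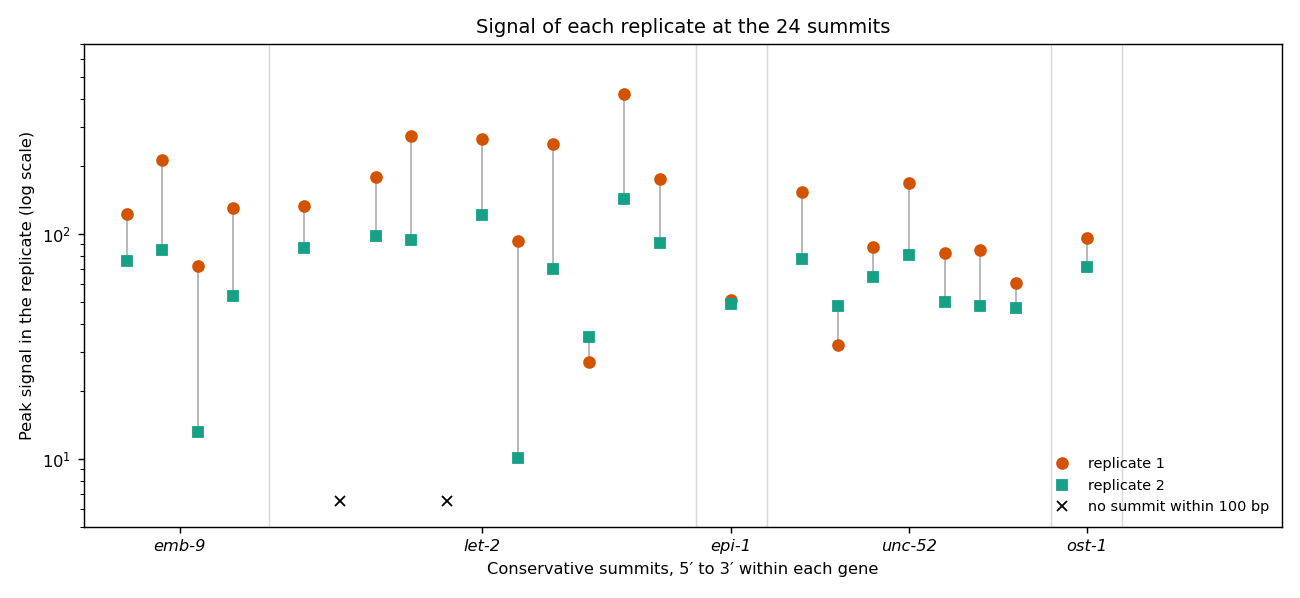
Ranked-list signal of replicate 1 (circles) and replicate 2 (squares) at the 24 conservative summits, ordered 5′ to 3′ within each gene, on a log axis in the caller's units. Lines join the replicates and crosses mark 2 let-2 summits without a replicate summit within 100 bp; replicate 1 is higher at 20 of the other 22.

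The 4 genes with the highest summit density were also the 4 of highest coding GC content. Median GC within 100 bp of the 24 summits was 56.2% (range 45.8 to 60.7%), against 54.7% at all conservative summits and a median of 38.2% over the 10 regions. At 23 of the 24 it was 50% or more, which was common in the whole list too. Of the 5343 conservative summits matched in both ranked replicate lists, 1967 had 50 to 55% GC and 2696 had 55% or more. The coding sequences of let-2, emb-9 and ost-1 had 57.0%, 53.6% and 52.3% GC, above 99.2%, 97.4% and 95.8% of genes, and unc-52 had 49.9%. The other 6 were lower: lam-2 had 44.4%, nid-1 had 43.6%, lam-1 had 43.1%, epi-1 had 43.0%, cle-1 had 42.7% and lam-3 had 40.1%, around the median of 42.5% for all genes.

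Coding GC content also went with the presence of summits across all genes. A summit was present in 3 of the 3 genes with at least 50% coding GC, against 61.8% of all such genes, and 91.2% of those with a body of at least 5 kb. unc-52, between 45 and 50%, had summits, as did 33.1% of all such genes and 60.3% of those of at least 5 kb. Of the 6 genes between 40 and 45%, only epi-1 had a summit, and that in its flank, against 14.3% of all such genes. That share covers all body lengths, while these 6 genes all had a body of at least 5 kb. No share for longer bodies of this class is given here. None of the 10 was under 40%, where 6.35% of all genes had a summit.

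**Figure D3:**
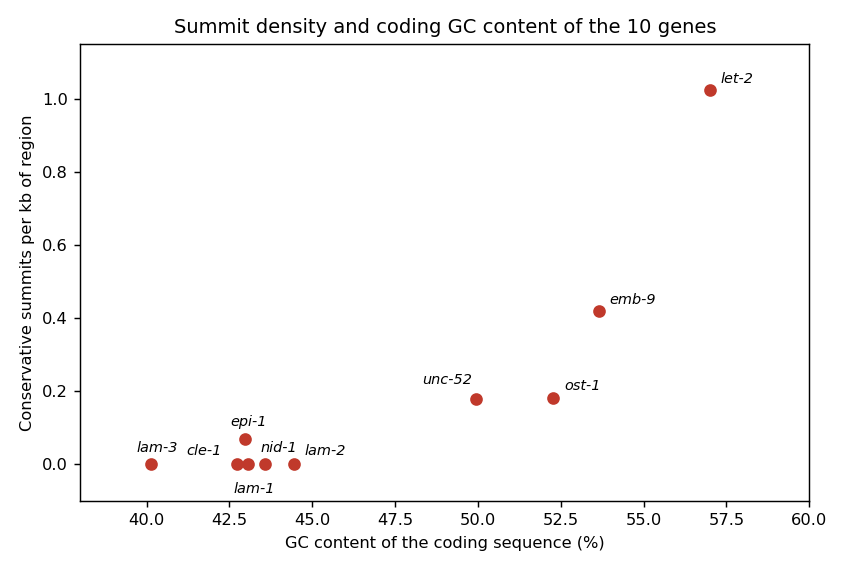
Conservative summits per kb of region (vertical axis) against the GC content of the coding sequence in percent (horizontal axis), 1 point for each of the 10 genes. The 4 genes of highest coding GC have between 0.179 and 1.02 summits per kb, and the 6 others have 0 or, for epi-1, 0.0691.

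The same held within the regions, cut into tiles of 200 bp. None of 412 tiles under 40% GC held a summit, which allows a share of up to 0.891% (exact 95% interval), against 0.0332% of all such tiles of the genome. The share was 0 of 164 tiles at 40 to 45% GC against 0.382%, 3.80% (3 of 79) at 45 to 50% against 2.97%, 11.6% (5 of 43, interval 3.89 to 25.1%) at 50 to 55% against 18.4%, and 53.3% (16 of 30, interval 34.3 to 71.7%) at 55% or more against 55.8%. In every GC class the genomic share lay within the interval of these genes, but the intervals are wide. Whether GC content accounts for the summits of these genes was not tested. Tiles of at least 50% GC made up 10.03% of the tiles in the 10 regions and 3.09% of the genome.

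**Figure D4:**
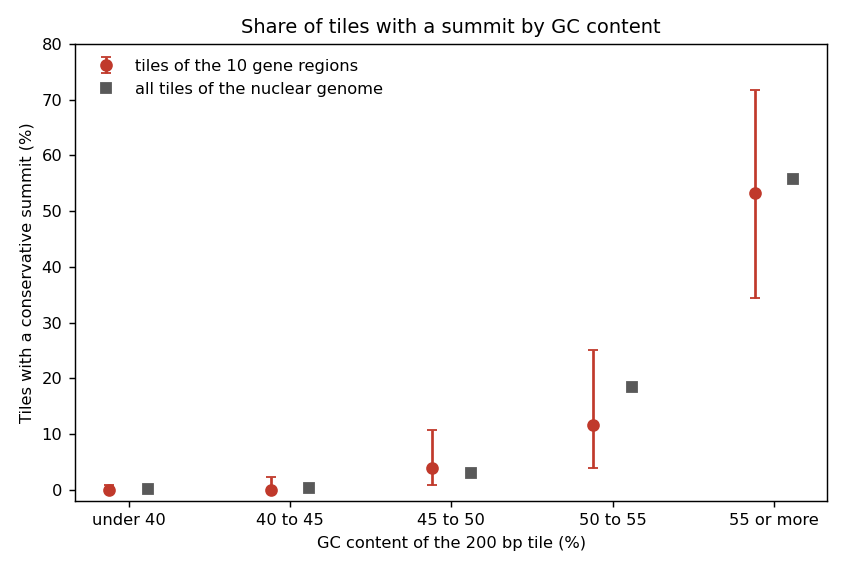
Percent of 200 bp tiles that hold a conservative summit (vertical axis) by GC content of the tile (horizontal axis), for the 10 gene regions (circles, exact 95% binomial intervals) and all tiles of the nuclear genome (squares). At 55% GC or more the shares are 53.3% and 55.8%.

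GC-rich tiles were unequally shared among the gene families. Tiles of at least 50% GC were 36 of 102 in the type IV collagen genes (35.3%), 29 of 195 in perlecan (14.9%) and 2 of 256 in the laminins (0.781%). Over all 10 regions, 21 of 73 such tiles held a summit (28.8%), against 27.6% of such tiles of the genome. By gene this was 10 of 21 in let-2, 4 of 15 in emb-9, 6 of 29 in unc-52 and 1 of 3 in ost-1. None of the 3 in cle-1 or the 1 each in epi-1 and lam-1 held one. The regions of lam-2, lam-3 and nid-1 had no such tile, and their highest values were 48%, 48.5% and 47.5%.

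All 24 summit windows were searched for 2 short repeats, chosen after the noncoding windows above had been seen. A run of 4 GA units on either strand was in 1 of the 24 windows, that upstream of let-2, and in 6.52% of all conservative summit windows and 2.96% of genomic tiles with at least 50% GC. At least 8 copies of GTCC, on either strand, were in 5 of the 24 windows, which were the unc-52 intron and 4 collagen coding windows, and in 2.31% of all summit windows and 1.76% of such tiles. The limit of 8 was also the highest count in any of the 24 windows. The unc-52 intron window, seen before the repeat was chosen, is 1 of the 5. Repeat and limit thus fit these same windows, so the counts are not evidence of enrichment. In the coding windows the reverse strand of GTCC, GGAC, arises wherever a GGA glycine codon precedes a C, so the copies there overlap the glycine repeat. A match is a description of the letters and not a binding site.

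Of 44 genes for matrix partners, receptors, collagen processing and adhesion, 17 had a conservative summit in their region, beside the 20.4% of all genes. By length, a summit was present in 0 of 3 under 2 kb (14.9% of all genes), 4 of 11 of 2 to 5 kb (18.6%), 8 of 20 of 5 to 10 kb (35.4%), 3 of 7 of 10 to 20 kb (51.6%) and 2 of 3 of 20 kb or more (66.2%). Among 13 matrix partners there were 4. col-99, a transmembrane collagen, had 5 summits, of which the strongest had a signal of 800 (555 in replicate 1 and 245 in replicate 2) in a coding exon where 17 of 52 codons encoded glycine. mig-6, which encodes papilin, had 2 with a strongest signal of 401, him-4, which encodes hemicentin, had 2 with 393, and lon-2, a glypican gene, had 1 with 235.

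Among 13 genes for collagen processing and matrix proteases, 7 had a summit. pdi-2, a protein disulfide isomerase that is also a subunit of collagen prolyl hydroxylase, had the strongest, with a signal of 1352 (918 and 424 in the replicates) 45 bp upstream of its start. mig-17, an ADAM family protease gene, had 689 in its downstream flank, and zmp-2, a matrix metalloprotease gene, had 425 at 56 bp upstream of its start. let-268, the procollagen lysyl hydroxylase gene, had 408, with 50.2% GC, and the higher signal in replicate 2 (279, against 128 in replicate 1). tric-1B.1, which encodes a TRIC family cation channel, had 222, with a thresholded peak in replicate 1 alone.

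Of 11 receptor genes, 3 had a summit: ptp-3, a LAR-type receptor phosphatase gene, with 961 in its downstream flank, dgn-3, related to dystroglycan, with 133, and pat-3, the beta integrin gene, with 101. Of 7 intracellular adhesion partners there were also 3. tln-1, which encodes talin, had 6 summits, 5 of them in coding exons, with a strongest signal of 271, and unc-112 (kindlin) and pat-4 (integrin-linked kinase) had 1 each, with 136 and 115.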

How the data were processed

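Peak lists on ce11 were read as the authors deposited them, 8 in all: each of the 2 replicates has a ranked list and a thresholded list, and 2 such pairs rest on both libraries. Per the deposited readme, they derive from alignments with a control, which was not analysed here. The ranked partner of the second whole-series list was not used. The aligner and caller, with versions, were not given in the sources used here. The signal deposited by the authors for each peak is the caller's strength value, of unstated scale. The deposited score of each peak is a scaled IDR. A summit is the peak start plus the deposited offset.

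Genes came from Ensembl release 115 of WBcel235 and sequence from RefSeq. Exon and codon numbers refer to the longest coding transcript that holds the summit. GC content at a summit was taken within 100 bp to each side, and the nuclear genome was cut into tiles of 200 bp. A conservative peak was called in a replicate if it overlapped a thresholded peak of it by at least 1 bp. Replicate signals came from ranked lists, from summits within 100 bp. Intervals are exact 95% Clopper-Pearson intervals. With 1 group no test was made, and counts are set beside the share of all protein-coding genes, peaks or tiles. The rule that counts summits in gene regions was tested on simulated summits. Start windows, replicate calls, tiles and codon counts were not part of that test. Python 3.11.15, pandas 2.3.3, NumPy 2.4.6, SciPy 1.17.1 and matplotlib 3.10.9 were used.

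The 10 genes and the 4 lists of related genes were chosen with earlier results of these data known. All 10 genes are named, and of each related list up to 5 genes with a summit, by signal. Codon, motif and coding GC descriptions were chosen after seeing the data. Alternatives were the second list, each replicate alone, the 2898 peaks of highest signal, other flanks and windows, interval overlap and 1 summit per interval. No sequence is printed for cle-1 or lam-3.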

Additional observations from a re-analysis of the deposited data

How the results depend on the processing

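Of 62 values under alternative settings, 51 were counted as close to the reported value and 11 as moved. This tally is not a measure of robustness. Some of the 51 could hardly move, such as the signal of a gene's strongest summit under other flanks. Others differed and still counted as close. Related genes with a summit fell from 17 to 12 with gene bodies only, and summits called in both replicates from 62.5% to 50% with summits within 100 bp. With each replicate list used alone, the number of the 10 genes with a summit ranged from 3 to 6, with a start-window summit from 1 to 3, the density from 0.0822 to 0.185 summits per kb, and the share of tiles of at least 50% GC with a summit from 16.4% to 34.2%. The lower ends came from replicate 2, whose list held emb-9, let-2 and unc-52, and the upper ends from replicate 1, which added cle-1, epi-1 and ost-1. In the 2898 peaks of highest signal, 3 genes had a summit, 1 had a start-window summit, the density was 0.0822 per kb, 83.3% of summits were called in both replicates, 16.4% of tiles of at least 50% GC held a summit and 11 related genes had one. That list holds fewer peaks by construction. With 55% in place of 50% GC, 53.3% of tiles held a summit. The share of summits in coding exons stayed between 75% and 86.4% and median GC between 55.7% and 57.9% under the alternatives run. No paired analysis was possible because the 2 replicates form 1 group. Depth is unknown, so which uncalled sites lay below detection cannot be told.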
